A study of Rattus norvegicus with 20 samples.

Results

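The members of this set are 8 genes of cholesterol synthesis and its control: Idi1, Fdft1, Sqle, Cyp51, Hsd17b7, Hmgcs1, Insig1 and Stard4. They were chosen by gene symbol, as the probe sets whose platform annotation names one of them. Of the 8 genes, 7 had at least 1 probe set of that symbol. Hmgcs1 was not analysed here. The 7 genes had 13 probe sets among the 31042 on the array, and 12 of these were among the 12947 probe sets kept for testing. A probe set was kept when its log2 value exceeded 4 in at least 5 arrays. The probe set left out, 1 of 3 for Stard4, lay at background. The set covers synthesis, feedback control and transport inside the cell rather than uptake from blood.

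The values came from liver RNA of 20 female Sprague Dawley rats, 1 Affymetrix array each, after 24 days on 1 of 4 diets, with 5 rats a diet. D3T livers came from rats given 3H-1,2-dithiole-3-thione at a dietary dose of 600 mg per kg, while OLT livers came from rats given oltipraz, a dithiole-thione ring carrying methyl and pyrazinyl substituents, at 500 mg per kg. BNF livers came from rats given 5,6-benzoflavone at 1650 mg per kg, and control livers from rats given the Harlan Teklad rodent mash without any of these compounds. D3T and OLT are dithiolethiones, known as activators of the transcription factor Nrf2. BNF binds and activates AhR, the aryl hydrocarbon receptor. Every value below is a probe set level or a difference of levels on the log2 scale, so that a difference of 1 is a 2-fold difference. Levels of different probe sets are not comparable with each other, and the precision is limited by the 5 arrays per diet.

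The liver makes cholesterol from acetyl-CoA through mevalonate, isoprenoid diphosphates, squalene and lanosterol. When sterols are scarce in the endoplasmic reticulum, the escort protein Scap carries the transcription factor SREBP-2 to the Golgi for cleavage, and the freed factor switches on most genes of the pathway. When sterols are plentiful, Insig proteins hold Scap back. The genes described below therefore encode enzymes of 1 pathway, not all of them successive, a part of its brake (Insig1) and a carrier of the product (Stard4).

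Promoter windows of 300 bases around the annotated start, lying mostly upstream of it, were at hand from RefSeq on build GRCr8 for 4 of the 7 measured genes (Insig1, Cyp51, Hsd17b7 and Idi1). Those of Insig1 and Hsd17b7 are shown because these genes carried called differences. Insig1 lies at chr4:8057720-8058019 and Hsd17b7 at chr13:84722705-84723004, both on the minus strand. Capitals mark CCAAT, bound by NF-Y, and GGGCGG, bound by Sp1, on either strand. Both factors are known partners of SREBPs.
Insig1: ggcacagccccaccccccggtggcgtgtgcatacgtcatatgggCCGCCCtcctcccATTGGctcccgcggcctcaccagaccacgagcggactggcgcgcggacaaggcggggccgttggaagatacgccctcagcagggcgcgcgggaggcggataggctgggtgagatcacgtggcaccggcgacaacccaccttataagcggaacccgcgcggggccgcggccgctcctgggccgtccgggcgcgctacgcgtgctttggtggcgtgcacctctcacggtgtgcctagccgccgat
Hsd17b7: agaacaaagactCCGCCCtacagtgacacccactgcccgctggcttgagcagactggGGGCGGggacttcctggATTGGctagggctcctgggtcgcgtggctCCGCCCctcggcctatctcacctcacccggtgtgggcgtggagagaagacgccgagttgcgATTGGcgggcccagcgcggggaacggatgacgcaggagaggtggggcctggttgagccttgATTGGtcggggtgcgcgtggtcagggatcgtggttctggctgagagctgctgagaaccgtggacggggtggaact
The Insig1 window held 1 CCAAT and 1 GGGCGG, and the Hsd17b7 window held 3 of each. Idi1 held 2 CCAAT and no GGGCGG, and Cyp51 held no CCAAT and 2 GGGCGG. Of all 33469 windows, 37.5% held CCAAT and 33.1% held GGGCGG. The sterol regulatory element was searched as TCACNCCAC and as CACCCCAC on both strands, which can overlap. Neither was found in the 4 windows, and 1.12% and 2.70% of all windows held them. These matches describe letters in 300 bases and nothing about binding.

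Before the comparisons, the arrays were checked against their labels. Across kept probe sets D3T 5 had a mean correlation of 0.968 with its own group and 0.979 with the OLT group, in which its closest array was OLT 2 (r = 0.989). For OLT 1 the values were 0.963 with its own group and 0.966 with the D3T group. Results of these groups that change without this pair of arrays are given both ways. Hepatocyte markers were high in every group, with 7 of 8 measured and a summed linear level of 205327 to 236677 in D3T, 222154 to 243351 in OLT, 212520 to 243490 in BNF and 178605 to 243908 in control livers. In whole liver, fewer cells of a type and less RNA per cell cannot be told apart.

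Idi1 (gene ID 89784) encodes isopentenyl-diphosphate isomerase, which makes the allylic unit that starts isoprenoid chains. Its level was 11.41, 11.02, 11.33, 11.47 and 12.23 in D3T livers and 11.59, 12.13, 11.57, 12.42 and 12.16 in OLT livers. It was 10.99, 12.03, 11.01, 12.32 and 11.66 in BNF livers, against 11.56, 11.69, 12.30, 12.33 and 12.94 in control livers. All but 1 of the D3T values lay below the lowest control value, the exception being the array labelled D3T 5. The OLT values lay inside the control range, and BNF livers split, with arrays 1 and 3 below every control value and the rest inside the control range. Idi1 was called in no comparison. A second probe set, with group means between 9.49 and 10.41, was not called either. It gave -0.91 for BNF versus control, 0.47 for D3T versus BNF and 0.85 for OLT versus BNF. The brighter probe set gave -0.56, -0.11 and 0.37 in these comparisons.

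Fdft1 (gene ID 29580) encodes squalene synthase, the first step committed to sterols. Its level was 11.03, 11.13, 11.45, 11.05 and 11.40 in D3T livers and 11.34, 10.92, 10.53, 10.70 and 10.77 in OLT livers. In BNF livers it was 9.28, 10.90, 9.84, 10.48 and 9.80, against 10.64, 10.57, 11.11, 10.65 and 11.19 in control livers. The BNF values were low and scattered, with 4 of 5 below every OLT and control value, while the D3T values were tightly grouped and all above the highest BNF value. The second probe set of Fdft1 averaged 10.04 in D3T, 9.95 in OLT, 9.17 in BNF and 9.94 in control livers, again with BNF at the low end.

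Sqle (gene ID 29230) encodes squalene epoxidase, known as a rate-limiting enzyme of the sterol branch. Its level was 9.36, 8.90, 9.12, 9.43 and 10.04 in D3T livers and 9.90, 9.74, 9.02, 9.84 and 9.83 in OLT livers. In BNF livers it was 8.73, 10.39, 9.36, 10.18 and 9.77, against 10.01, 9.82, 10.21, 10.21 and 10.84 in control livers. Of the D3T values 4 of 5 lay below the lowest control value, and the OLT values reached only the lower edge of the control range. The BNF values spanned nearly the whole range of the other diets.

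Cyp51 (gene ID 25427) encodes lanosterol 14-alpha-demethylase. Its level was 12.13, 12.70, 12.82, 11.55 and 13.39 in D3T livers and 12.96, 13.11, 12.52, 12.95 and 12.78 in OLT livers. In BNF livers it was 11.74, 12.48, 11.89, 12.26 and 12.38, against 11.92, 12.20, 12.69, 12.18 and 12.78 in control livers. The D3T livers held both the lowest and the highest value of all 20 arrays, and every OLT value lay above every BNF value. The second Cyp51 probe set varied less, at 10.98 ± 0.22 in D3T, 10.92 ± 0.26 in OLT, 10.25 ± 0.40 in BNF and 10.58 ± 0.32 in control livers (SD, n = 5 each).

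Hsd17b7 (gene ID 29540) encodes the 3-ketosteroid reductase of the demethylation of sterols at carbon 4. Its level was 8.82, 8.54, 9.14, 9.40 and 9.32 in D3T livers and 9.56, 8.93, 8.99, 9.54 and 9.13 in OLT livers. In BNF livers it was 8.20, 9.22, 8.78, 9.38 and 8.45, against 9.80, 9.35, 9.44, 9.503 and 10.34 in control livers. Control livers were highest on average, and all but 1 of the BNF and all but 1 of the D3T values lay below the lowest control value. A second, dimmer probe set varied more, with a mean of 5.95 ± 1.16 in D3T, 6.99 ± 0.47 in OLT, 6.74 ± 0.69 in BNF and 7.12 ± 1.102 in control livers, and was called in no comparison. It placed D3T below BNF by 0.78, while the brighter probe set placed D3T above BNF by 0.24.

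Insig1 (gene ID 64194) encodes the sterol-sensing anchor that retains Scap, and its own gene is a known SREBP target. Its level was 12.62, 13.11, 13.32, 11.93 and 13.77 in D3T livers and 13.38, 13.29, 13.03, 12.61 and 12.78 in OLT livers. In BNF livers it was 10.73, 12.31, 10.95, 12.21 and 11.39, against 11.59, 11.70, 12.41, 12.24 and 12.53 in control livers. Every OLT value and 4 of 5 D3T values exceeded the highest control value, and BNF livers held the 3 lowest values of the set. The order of the means was OLT, D3T, control and BNF. D3T and control, and control and BNF, did not differ by a called difference, and OLT and D3T were not tested.

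Stard4 (gene ID 291699) encodes a START-domain protein that carries cholesterol between membranes. Its level was 8.75, 8.89, 8.78, 9.29 and 9.27 in D3T livers and 8.77, 8.79, 8.50, 8.80 and 8.89 in OLT livers. In BNF livers it was 8.16, 8.18, 8.70, 8.63 and 8.23, against 9.18, 8.88, 8.82, 8.66 and 9.32 in control livers. BNF livers had the lowest mean and all lay below the lowest D3T value, and 1 of them exceeded the lowest control value. A second kept probe set of Stard4 had group means between 4.54 and 5.22, close to the filter, and was not called.

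**Figure D1:**
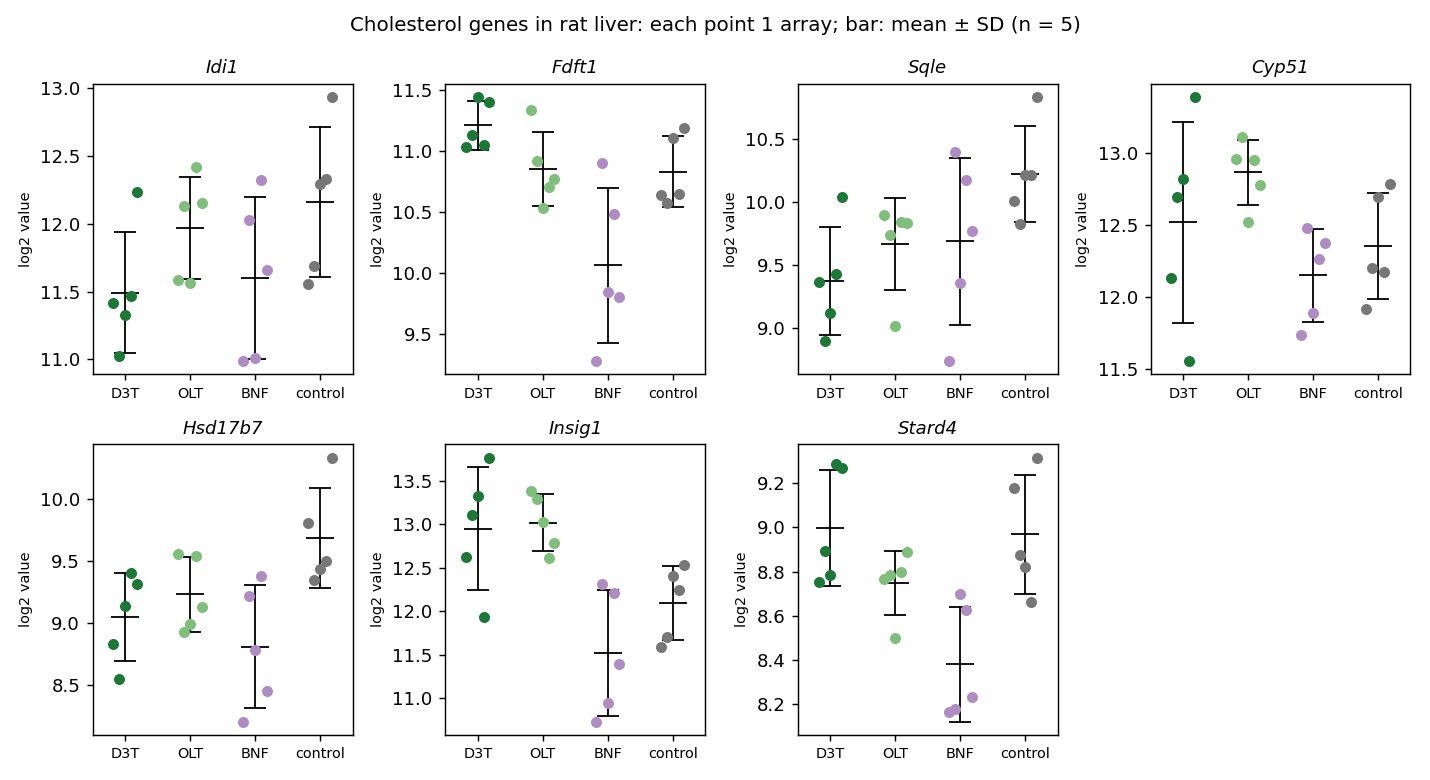
Levels of the 7 measured genes on the log2 scale (vertical axes, a separate range per gene) by diet, each point 1 array, with bars for the mean and SD of 5 arrays. BNF livers are low and scattered for Fdft1 and Insig1, and control livers have the highest means for Idi1, Sqle and Hsd17b7.

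BNF versus control asks what an AhR ligand did to these genes. Hsd17b7 and Stard4 fell, and no gene of the 7 rose. Tests were made with limma on all 20 arrays, and a difference was called where p, adjusted by Benjamini-Hochberg across the 12947 kept probe sets, was under 0.05. Of these probe sets 1.46% were called higher and 2.02% lower. All 7 estimates were below 0, with a median of -0.57, whereas 61.0% of all probe sets were below 0, with a median of -0.05. The 7 genes were chosen with earlier results of these data known. They also varied together between rats, so that their signs are not separate observations. Hsd17b7 fell by 0.88 to 8.80 ± 0.50 in BNF livers, against 9.69 ± 0.40 in control livers (SE 0.24, 95% interval -1.38 to -0.38, adjusted p = 0.0476). Stard4 fell by 0.59 to 8.38 ± 0.26 in BNF livers, against 8.97 ± 0.27 in control livers (SE 0.15, interval -0.91 to -0.27, adjusted p = 0.0388). Fdft1 averaged 10.06 ± 0.63 in BNF livers and 10.83 ± 0.29 in control livers, and its difference of -0.77 missed the threshold (interval -1.26 to -0.28, adjusted p = 0.0808). Idi1 gave -0.56 (interval -1.18 to 0.06), Insig1 -0.57 (-1.28 to 0.13), Sqle -0.53 (-1.12 to 0.06) and Cyp51 -0.20 (-0.75 to 0.34), with adjusted p from 0.381 to 0.826.

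Both calls stood close to the threshold. Stard4 lost its call when BNF 1, BNF 2, BNF 5, control 1, control 2, control 5 or OLT 2 was left out, with adjusted p between 0.0510 and 0.1135 in those fits. Hsd17b7 lost its call when BNF 1, 3 or 5, control 1, 2, 4 or 5, D3T 1, 3 or 5, or OLT 2, 3, 4 or 5 was left out (adjusted p between 0.0506 and 0.141). Neither was called with the replicate block, after centring each array, without the filter, in a fit of BNF and control arrays alone or as a mean of each gene's probe sets, and Hsd17b7 was not called after quantile normalization. Fdft1 was called without BNF 2 (adjusted p = 0.0184) and with array weights (adjusted p = 0.0232).

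Of the 7 measured hepatocyte markers, 5 had estimates above 0 for BNF versus control and 2 below. The 1 called was Apoa1, higher at 14.68 ± 0.16 in BNF livers against 13.89 ± 0.30 in control livers. Markers of other cell types moved with the BNF diet as well. All 11 measured of 14 macrophage and Kupffer cell markers had estimates above 0 against control, with 2 called higher, and their summed linear level was 6236 to 13911 in BNF livers against 3926 to 6802 in control livers. All 8 measured of 11 stellate cell and fibroblast markers were above 0, with 4 called, at a summed 3488 to 5846 in BNF livers against 1862 to 2712 in control livers. For the 3 measured of 9 lymphocyte markers the sums were 2967 to 5189 in BNF livers and 1041 to 2326 in control livers. Of these 3 markers, 2 had estimates above 0 and 1 below, and the 1 called higher was Cd74. The 7 measured of 10 endothelial markers gave 1228 to 2202 in BNF and 954 to 1680 in control livers, with none called by limma and 1 at an unadjusted p under 0.05, and the 2 measured of 7 cholangiocyte markers gave 63 to 174 in BNF and 60 to 171 in control livers with 1 called higher. The defining markers Des, Rgs5 and Lum (stellate cells), Krt7 and Krt19 (cholangiocytes) and Cd3d, Cd8a and Cd79b (lymphocytes) had probe sets that stayed at background. The part of these cells in the lower levels of Hsd17b7 and Stard4 was not tested.

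D3T versus control asks about the unsubstituted dithiolethione. None of the 7 genes was called by limma, while 4.63% of all probe sets were called higher and 6.97% lower. The estimates ran in both directions, 4 above 0 and 3 below, with a median of 0.03 beside -0.02 for all probe sets. Insig1 averaged 12.95 ± 0.70 in D3T livers and 12.09 ± 0.42 in control livers, a difference of 0.86 (interval 0.16 to 1.56, adjusted p = 0.107). Sqle averaged 9.37 ± 0.43 in D3T livers and 10.22 ± 0.38 in control livers, a difference of -0.85 (interval -1.44 to -0.26, adjusted p = 0.0591). Hsd17b7 gave -0.64 (interval -1.14 to -0.14, adjusted p = 0.0923) and Idi1 -0.67 (interval -1.29 to -0.05, adjusted p = 0.158). Fdft1 gave 0.38 (interval -0.11 to 0.87), Cyp51 0.17 (interval -0.38 to 0.71) and Stard4 0.03 (interval -0.30 to 0.35). At an unadjusted p under 0.05 there were 4 of these, Insig1 above 0 and Sqle, Hsd17b7 and Idi1 below. The share of all probe sets at that cut was not counted for this or the other comparisons.

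The Sqle difference lay near the threshold. It was -1.02 and called when D3T 5 and OLT 1 were left out (adjusted p = 0.0274), and it was also called when BNF 1, BNF 2, D3T 5 or OLT 3 alone was left out (adjusted p between 0.0267 and 0.0476). Further calls came with the stricter filter (adjusted p = 0.0456), with only D3T and control arrays (0.0464), with the replicate block (0.0429) and with the mean of probe sets (0.0494). Insig1 was called with array weights (adjusted p = 0.0346) and without D3T 4 (adjusted p = 0.0305), the D3T array in which it was lowest. Without D3T 5 and OLT 1 the small differences of Cyp51 and Stard4 were -0.05 and -0.04.

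OLT versus control asks about the substituted dithiolethione at its own, lower dose. None of the 7 genes was called by limma, where 1.53% of all probe sets were called higher and 4.85% lower, and Insig1 was the only one at an unadjusted p under 0.05. Insig1 averaged 13.02 ± 0.33 in OLT livers and 12.09 ± 0.42 in control livers, with no overlap of the arrays, a difference of 0.93 (interval 0.23 to 1.63, adjusted p = 0.106). It was called in a fit of OLT and control arrays alone (adjusted p = 0.0468) and with array weights (adjusted p = 0.0366). Cyp51 gave 0.51 (interval -0.04 to 1.06), with a call under array weights (adjusted p = 0.0379), and Fdft1 0.02 (interval -0.47 to 0.52, or -0.10 without D3T 5 and OLT 1). Below 0 were Sqle at -0.55 (interval -1.15 to 0.04), Hsd17b7 at -0.46 (-0.96 to 0.05), Stard4 at -0.22 (-0.55 to 0.10) and Idi1 at -0.19 (-0.81 to 0.43). The median was -0.19, beside -0.04 for all probe sets. The 3 comparisons with control share the same control arrays.

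D3T and OLT were given at different doses, so that no test was made between them. Side by side, Insig1 averaged 12.95 in D3T and 13.02 in OLT livers, Fdft1 11.21 and 10.85, and Cyp51 12.52 and 12.87. Sqle averaged 9.37 in D3T and 9.66 in OLT livers, Idi1 11.49 and 11.97, Hsd17b7 9.05 and 9.23, and Stard4 8.997 and 8.75. The structures differ by the methyl and pyrazinyl groups that OLT carries on the ring.

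D3T versus BNF sets a dithiolethione against the AhR ligand, again at different doses and with compounds of different kinds. Insig1, Fdft1 and Stard4 were higher in D3T than in BNF livers and none was lower, where 8.70% of all probe sets were called higher and 6.24% lower. Fdft1 was 1.15 higher (SE 0.24, interval 0.66 to 1.64, adjusted p = 0.00263), or 2.22-fold, with no overlap of the arrays, and its second probe set 0.87 higher (adjusted p = 0.0217). Insig1 was 1.43 higher (SE 0.34, interval 0.73 to 2.13, adjusted p = 0.00691), or 2.70-fold, with D3T 4 inside the BNF range. Stard4 was 0.62 higher (SE 0.15, interval 0.30 to 0.94, adjusted p = 0.0105), with no overlap. All 3 stayed called in each of 31 alternative fits, 20 of which left out 1 array. Cyp51 gave 0.37 and was not called (adjusted p = 0.381), while its second probe set was 0.73 higher and called (adjusted p = 0.0120). Hsd17b7 gave 0.24 (interval -0.26 to 0.74), Idi1 -0.11 (-0.73 to 0.51) and Sqle -0.32 (-0.91 to 0.27). The median of the 7 was 0.37, beside 0.02 for all probe sets.

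OLT versus BNF gave calls for Insig1 and Fdft1, both higher in OLT livers, where 4.29% of all probe sets were called higher and 5.33% lower. Insig1 was 1.501 higher (SE 0.34, interval 0.80 to 2.20, adjusted p = 0.00754), or 2.83-fold, with no overlap, and stayed called in all 31 alternative fits. Fdft1 was 0.79 higher (SE 0.24, interval 0.30 to 1.29, adjusted p = 0.0390). It was not called without BNF 1, BNF 3, BNF 5, OLT 1, OLT 2 or OLT 4 (adjusted p between 0.0533 and 0.117), nor without D3T 5 and OLT 1 together (0.67, adjusted p = 0.113). It was also lost without the filter (adjusted p = 0.0887), with only OLT and BNF arrays (0.124) and with the replicate block (0.0632). Its second probe set gave 0.78 and was not called (adjusted p = 0.0520). Cyp51 gave 0.72 with no overlap of the arrays and an adjusted p of 0.0936, and was called without D3T 4 (adjusted p = 0.0412), with array weights (0.00685), with only OLT and BNF arrays (0.0288) and with the mean of probe sets (0.0323). The second probe set of Cyp51 was 0.67 higher and called (adjusted p = 0.0277). Hsd17b7 gave 0.43 (interval -0.08 to 0.93), Idi1 0.37 (-0.25 to 0.99), Stard4 0.37 (0.04 to 0.69, adjusted p = 0.148, or 0.0442 and called after centring) and Sqle -0.02 (-0.62 to 0.57). The median was 0.43, beside 0.01 for all probe sets. Both comparisons with BNF share the BNF arrays. In them 8 (D3T) and 11 (OLT) of 11 measured macrophage markers and 5 (D3T) and 4 (OLT) of 8 stellate cell markers were called lower than in BNF livers. Their summed levels were 2777 to 6792 in D3T, 2010 to 6732 in OLT and 6236 to 13911 in BNF livers for macrophages. For stellate cells they were 1931 to 2763 in D3T, 1530 to 2862 in OLT and 3488 to 5846 in BNF livers. Their part in the higher Insig1, Fdft1 and Stard4 was not tested. Of the hepatocyte markers, Apoa1 alone was called in these comparisons, lower in D3T and in OLT than in BNF livers.

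**Figure D2:**
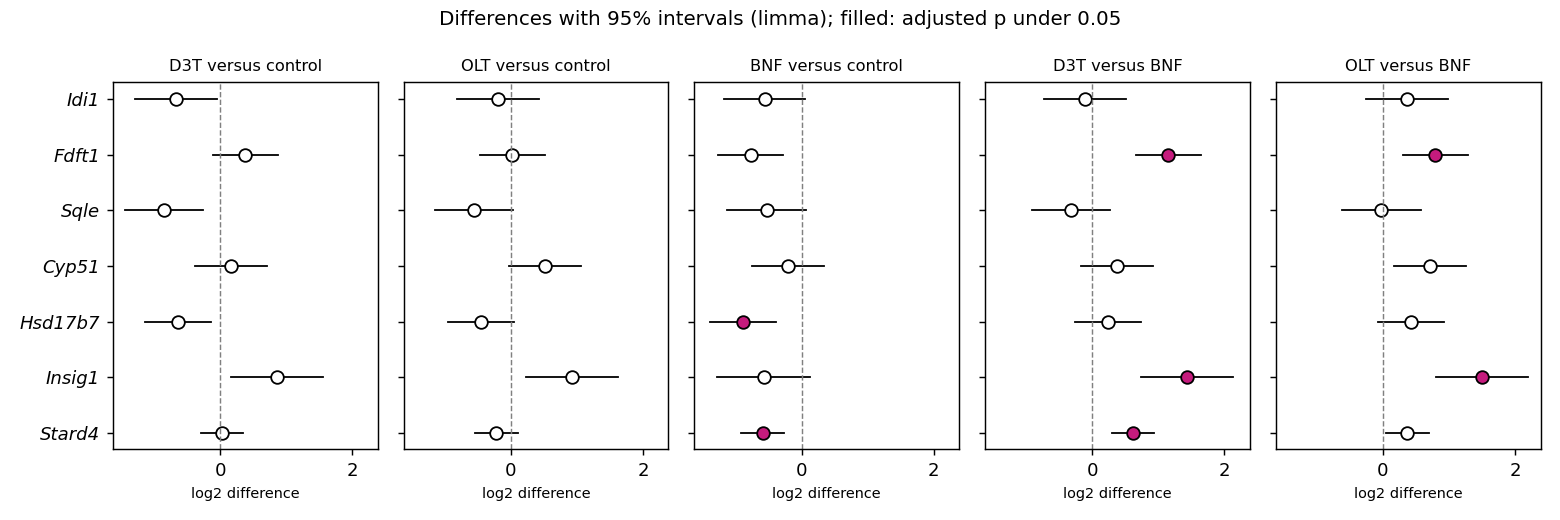
Log2 differences of the 7 genes (horizontal axes) in the 5 comparisons, with 95% intervals from limma. Filled circles mark adjusted p under 0.05: Hsd17b7 and Stard4 below 0 for BNF versus control, Fdft1, Insig1 and Stard4 above 0 for D3T versus BNF, and Fdft1 and Insig1 above 0 for OLT versus BNF.

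The genes also varied together between rats on the same diet. After the diet means were taken off, the 21 pairs of the 7 genes had a median correlation of 0.60 over the 20 arrays, with 20 pairs above 0. The same genes had a median correlation of 0.04 with all other measured genes. The closest pairs were Sqle with Idi1 (r = 0.86), Cyp51 with Insig1 (0.84) and Fdft1 with Insig1 (0.80). Stard4 stood apart, with a median of 0.24 with the other members, whose own medians ran from 0.56 to 0.69, and -0.06 with Insig1. These correlations are a description, and the points share the array, its normalization and the liver sampled. The correlations and the deviations below use the diet labels as given. They were not computed without D3T 5 and OLT 1, the arrays closer to the other dithiolethione group. For D3T 5, rat variation and a wrong label cannot be told apart here. In some arrays the set lay above or below its diet mean as a whole. All 7 genes lay below their diet mean in the arrays labelled BNF 1 (mean deviation -0.62), control 2 (-0.30) and D3T 1 (-0.21). All 7 lay above it in D3T 5 (0.55), control 5 (0.52) and BNF 4 (0.47). In D3T 4 the genes parted, with Insig1 1.02 below its diet mean and 3 of the 7 above theirs.

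**Figure D3:**
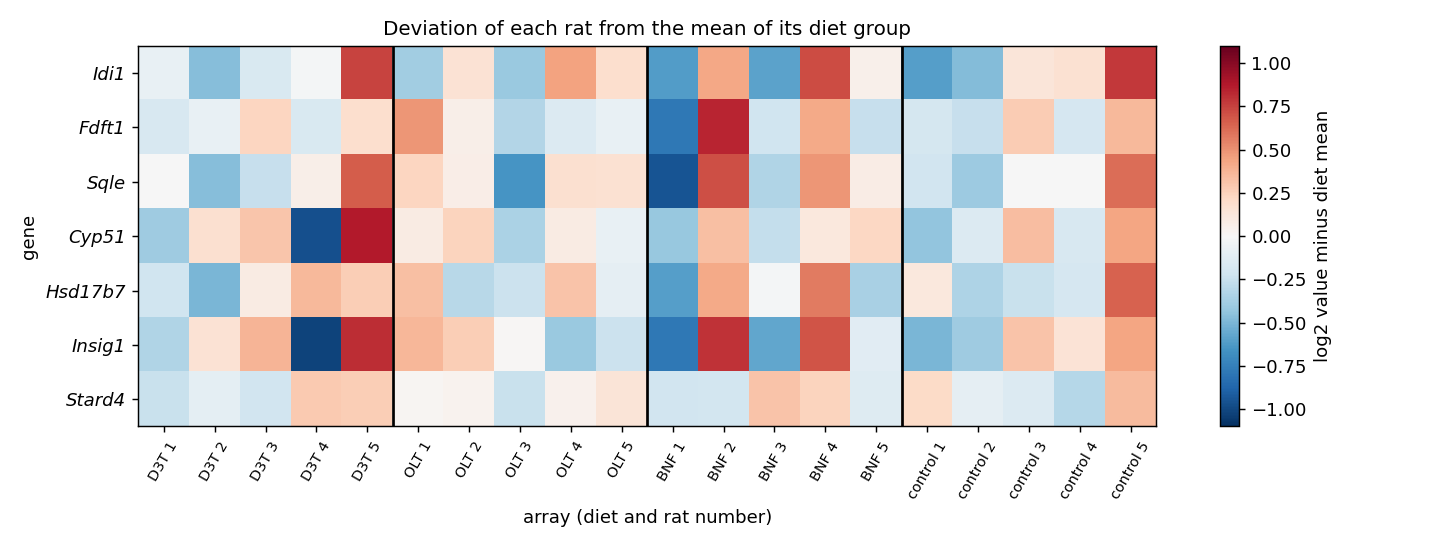
Deviation of each gene from its diet mean on the log2 scale (colour, red above and blue below) for the 20 arrays (columns, grouped by diet) and 7 genes (rows). The columns BNF 1 and D3T 5 are nearly of 1 colour, while D3T 4 mixes strong blue for Cyp51 and Insig1 with pale colours.

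The genes whose levels tracked the 7 most closely over the 20 arrays were ranked by correlation with the mean of the members' standardized levels. They were Msmo1 (r = 0.89), the sterol C4-methyl oxidase, Mvd (0.87), mevalonate diphosphate decarboxylase, Mvk (0.83), mevalonate kinase, Aacs (0.81), acetoacetyl-CoA synthetase, and Pdp2 (0.80), a phosphatase of pyruvate dehydrogenase. After removal of diet means the correlations were 0.93, 0.83, 0.73, 0.75 and 0.71. The ranking was not repeated without D3T 5 and OLT 1. Of these, Pdp2 was called lower in BNF than in control livers, at 6.35 ± 0.32 against 7.54 ± 0.43 (difference -1.20, adjusted p = 0.00849).

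The other enzymes of the pathway had calls with control under the dithiolethiones and none under BNF. Of 17 listed, 15 were measured. Under BNF limma called none in either direction, although 8 had an unadjusted p under 0.05, with a median difference of -0.51 and 12 of 15 below 0. Of all probe sets 61.0% were below 0 under BNF, with a median of -0.05, and the share at that unadjusted cut was not counted. This list too was chosen with earlier results of these data known. Under D3T 4 rose and none fell, with a median of 0.33, while over all probe sets 4.63% were called higher and 6.97% lower, with a median of -0.02. Dhcr7, the last step to cholesterol, rose by 1.40 to 11.37 ± 0.21 in D3T livers, against 9.96 ± 0.27 in control livers (adjusted p = 0.00117). Acss2, which makes acetyl-CoA from acetate, rose by 1.33 to 11.76 ± 0.15 in D3T livers, against 10.43 ± 0.39 in control livers (adjusted p = 2.24e-04). Pmvk, phosphomevalonate kinase, rose by 0.61 (adjusted p = 0.0247) and Ebp, a sterol isomerase, by 0.37 (adjusted p = 0.0393). Under OLT 2 rose, Dhcr7 by 0.99 to 10.96 ± 0.40 in OLT livers (adjusted p = 0.0218) and Acss2 by 0.69 to 11.12 ± 0.46 (adjusted p = 0.0407), with a median of 0.08. Over all probe sets 1.53% were called higher under OLT, with a median of -0.04. Against BNF 8 of the 15 were called higher in D3T livers and 3 in OLT livers, and none lower. Over all probe sets 8.70% were called higher and 6.24% lower in D3T than in BNF livers. For OLT versus BNF the shares were 4.29% higher and 5.33% lower.

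Some of these calls depended on single arrays. Pmvk was lost without control 2, control 4, D3T 2 or D3T 3 (adjusted p between 0.0569 and 0.0779), and Ebp without control 1, control 2, control 4, D3T 2, D3T 3 or D3T 5 (0.0541 to 0.117). Under OLT, Dhcr7 was lost without control 1, control 2 or OLT 1 (0.0530 to 0.0647) and Acss2 without control 1, 2, 3 or 4 or OLT 1, 3 or 4 (0.0539 to 0.107). Without the filter Pmvk (adjusted p = 0.0608) and Ebp (0.0896) under D3T and Dhcr7 (0.0523) and Acss2 (0.0962) under OLT were lost. Under OLT, Acss2 was also lost with only OLT and control arrays (0.161), and without D3T 5 and OLT 1 both Dhcr7 (0.0717) and Acss2 (0.0939) were. Dhcr7 and Acss2 under D3T were called in all 31 alternative fits. Between D3T and BNF, Ebp was called in only 19 of the 31, and Dhcr7, Acss2 and Pmvk in all. Dhcr7 and Acss2 between OLT and BNF were called in all as well. Fdps, Mvk, Acat2 and Lss were not followed in the alternative fits.

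**Figure D4:**
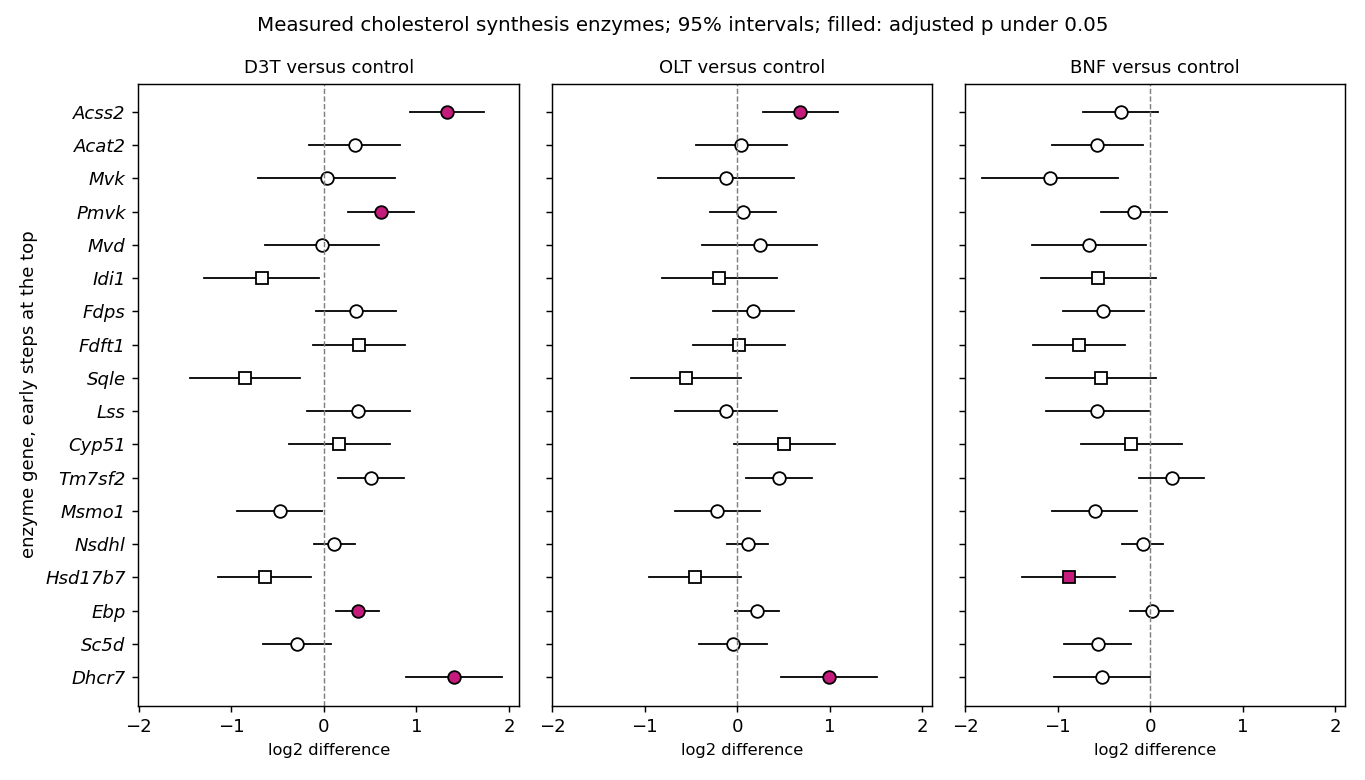
Log2 difference from control (horizontal axes, 95% intervals) of the measured synthesis enzymes in pathway order, early steps at the top, for D3T, OLT and BNF. Squares are members of the set, circles other enzymes, and filled symbols have adjusted p under 0.05. Called increases under D3T sit at Acss2, Pmvk, Ebp and Dhcr7, while Idi1, Sqle and Hsd17b7 lie left of 0.

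Among the SREBP regulators 8 of 10 were measured. Srebf1, the gene of SREBP-1, which drives fatty acid synthesis, rose by 1.11 to 11.12 ± 0.39 in D3T livers (adjusted p = 7.74e-04) and by 1.09 to 11.09 ± 0.19 in OLT livers (adjusted p = 0.00168), against 10.002 ± 0.083 in control livers. It fell by 0.70 to 9.30 ± 0.43 in BNF livers (adjusted p = 0.0443). The arrays of each of these diets did not overlap with control. Srebf2, the gene of SREBP-2, was not called against control, with 0.09 under D3T, -0.02 under OLT and -0.47 under BNF (interval -0.79 to -0.15, adjusted p = 0.103). It was 0.56 higher in D3T than in BNF livers (adjusted p = 0.0167). Scap rose by 0.61 in D3T livers (adjusted p = 0.0296), and Insig2, the second anchor, fell by 0.84 there (adjusted p = 0.0310) and gave -0.71 under OLT (adjusted p = 0.0883). In all, 2 regulators rose and 1 fell under D3T, 1 rose under OLT and 1 fell under BNF. Beside these 8 genes, the shares of all probe sets called were 4.63% higher and 6.97% lower under D3T, 1.53% higher under OLT and 2.02% lower under BNF.

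The Srebf1 call under BNF was lost without any 1 of the 5 control arrays, BNF 1, 2 or 3, D3T 3, or OLT 2, 3 or 4 (adjusted p between 0.0501 and 0.1285). It was also lost after centring (0.0651), without the filter (0.0969), with only BNF and control arrays (0.0641), with the replicate block (0.0681) and with the mean of probe sets (0.205), while both increases of Srebf1 were called in all 31 alternative fits. Srebf2 was called under BNF without D3T 2 (adjusted p = 0.0393) and with array weights (0.0114), and its difference between D3T and BNF was lost without D3T 3 (0.0575) and with only those groups (0.0747). Scap was lost without control 1, control 4, D3T 1 or D3T 3 (adjusted p between 0.0620 and 0.0797) and Insig2 without control 1, control 2, D3T 2 or D3T 3 (0.0660 to 0.0922). Without the filter both Scap (0.0729) and Insig2 (0.0731) were lost, as was Insig2 with the mean of probe sets (0.0622).

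Of 14 genes of uptake and transport inside the cell, 8 were measured, and limma called none against control in D3T, OLT or BNF livers. At an unadjusted p under 0.05 there were 1 in D3T, 1 in OLT and 2 in BNF livers. The share of all probe sets at that cut was not counted. Of 12 genes of cholesterol export and storage 9 were measured. Under BNF 2 rose, the sterol exporters Abcg1 by 1.38 (adjusted p = 0.0162) and Abcg5 by 2.21 (adjusted p = 0.0487), and none fell. Over all probe sets the shares called higher were 1.46% under BNF, 4.63% under D3T and 1.53% under OLT. The shares called lower were 2.02% under BNF, 6.97% under D3T and 4.85% under OLT. Under D3T none was called higher and 4 were called lower. Nceh1, a cholesterol ester hydrolase, fell by 4.575 to 4.67 ± 1.12 in D3T livers, near background. Abcg5 read 1.87 to 3.93 in D3T livers, all at background, against 4.63 to 5.98 in control livers, so that the size of its difference is not a measured one. Lcat, which esterifies cholesterol in plasma, fell by 0.70, and Cyp27a1, a sterol hydroxylase, fell by 0.43. Under OLT none rose and 3 fell. Nceh1 fell by 3.95 in OLT livers, Cyp27a1 fell by 0.49 and Lcat fell by 0.475. After centring each array, Cyp27a1 was not called under D3T (-0.29, adjusted p = 0.230) or OLT (-0.32, adjusted p = 0.203), and neither was Lcat under OLT (-0.31, adjusted p = 0.146). Adjusted p was at most 0.0110 for the 4 D3T calls and at most 0.0344 for the 3 OLT calls. Abcg1 was lost without control 1 (adjusted p = 0.0523) or BNF 1 (adjusted p = 0.0509). Abcg5 under BNF was lost without any 1 of the control or BNF arrays, D3T 3 or 4, or OLT 2, 3 or 4 (0.0504 to 0.113), and also without the filter (0.105) and without the intensity trend (0.0510). Lcat under OLT was lost without any 1 of the control arrays or OLT 1, 2 or 3 (0.0518 to 0.0928), without the filter (0.0743) and with only OLT and control arrays (0.0806). The higher macrophage and stellate cell markers of BNF livers stand beside the BNF differences of Srebf1, Abcg1 and Abcg5 as well, and their part in these was not tested.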

How the data were processed

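Per the labels, total liver RNA was extracted with Stat-60 and labelled with biotin for 1-colour arrays. The deposited values are log2 probe set summaries that the authors made with GCRMA, per the submitters' processing notes (version not given in the sources used here). GCRMA corrects background and normalizes between arrays, so that levels under about 4 depend on its background. No scan dates were at hand, so that batches could not be looked for. Diets were taken from the sample titles, 5 rats each. The supplied platform annotation named the probe sets (20826 with 1 gene, 436 with several, 9780 with none), and 20758 symbols were looked up by gene ID.

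Of 31042 probe sets, 12947 exceeded 4 in at least 5 arrays, for 7837 genes. Where a gene had several kept probe sets, the one of highest mean stood for it. For the members alone the others are given beside it. Limma 3.58.1 in R 4.3.3 (lmFit, eBayes with trend) was fitted to the 20 arrays together, 1 mean for each diet, with two-sided tests and Benjamini-Hochberg adjustment over kept probe sets, and every adjusted p above comes from it unless an alternative is named. The fit was tested on simulated data. The alternatives were centring, quantile normalization, no or a stricter filter (log2 above 6), eBayes without trend or robust, array weights, the mean of probe sets, only the groups compared, a replicate block, and leaving out arrays.

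The members and lists were chosen with earlier results of these data known. Genes to name were, by rule, all members, Srebf2, Srebf1, Insig2, the genes of each pathway list called against control and the 5 genes of most similar pattern. Marker sums add 2 to the power of each log2 value. Sequences are from RefSeq.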

Additional observations from a re-analysis of the deposited data

Results flagged for a closer look

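Of 28 groups of 5 arrays (7 genes by 4 diets), 1 held a value far from the others. Sqle read 9.02 in the array labelled OLT 3, and the nearest OLT value was 9.74, a gap of 0.819 of the whole range of the OLT group. Any gap above the 95% limit of Dixon's test was singled out in this way, and chance alone passes that limit in about 1 group in 20.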

How the results depend on the processing

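Of the 7 genes, the main setting called 2 between BNF and control. This count was 3 with array weights, 1 after quantile normalization and 0 after centring, without a filter, with only the groups compared, with the replicate block or with the mean of probe sets, and 0 to 2 with 1 array left out. Between D3T and control, where none was called, 1 was called with array weights (Insig1) and with the stricter filter, only the groups compared, the replicate block, the mean of probe sets or without D3T 5 and OLT 1 (Sqle each time), and 0 to 1 with 1 array left out. Between OLT and control, where none was called, 2 were called with array weights and 1 with only the groups compared, and 0 with 1 array left out. The 3 calls between D3T and BNF stayed at 3 throughout. The 2 between OLT and BNF were 3 after centring, with array weights or with the mean of probe sets, 1 without a filter, with the replicate block or without D3T 5 and OLT 1, and 1 to 3 with 1 array left out.

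Signs turned for small differences. Without D3T 5 and OLT 1, Cyp51 and Stard4 gave -0.0526 and -0.0411 under D3T and Fdft1 -0.0994 under OLT. With the mean of probe sets, Idi1 gave 0.1807 and Hsd17b7 -0.2709 between D3T and BNF. Sqle between OLT and BNF gave 0.0768 after centring, 0.0076 after quantile normalization and 0.0793 with array weights. Srebf2 under OLT gave 0.1498, 0.0884 and 0.0923 under the same settings. With 1 array left out, Stard4 under D3T ran from -0.0504 to 0.1138, Cyp51 under D3T from -0.0526 to 0.4066, Fdft1 under OLT from -0.0994 to 0.1113 and Idi1 under OLT from -0.3419 to 0.0032. Idi1 between D3T and BNF ran from -0.2938 to 0.0714 and Sqle between OLT and BNF from -0.2613 to 0.1535. Srebf2 under OLT ran from -0.0559 to 0.0259. The cause was not tested.

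Counts over all probe sets moved by over 1.5 times with array weights: 1480 against 450 (BNF versus control), 2885 against 1502 (D3T versus control), 2054 against 826 (OLT versus control), 3337 against 1935 (D3T versus BNF) and 2767 against 1246 (OLT versus BNF). Without a filter they were 974 (D3T versus control) and 457 (OLT versus control), and with only OLT and control arrays 382. With 1 array left out they ran from 263 to 508 (BNF versus control), 969 to 1673 (D3T versus control), 523 to 1310 (OLT versus control), 1344 to 2180 (D3T versus BNF) and 777 to 1675 (OLT versus BNF). Between rats with the same number, deviations from the diet means correlated from -0.27 to 0.30, with 11 of 30 pairs of arrays above 0.1. Rats with different numbers were not set beside these, so that the check cannot tell whether the number is a pairing. The main fit treated the rats as unpaired, and the replicate block is given as an alternative.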
